A study of Mus musculus with 16 samples.

Results

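The laminin chain genes are the genes whose protein products assemble into laminins, and 9 of them are described here: Lama1, Lama2, Lama3, Lama4, Lama5, Lamb1, Lamb2, Lamb3 and Lamc1. These genes were chosen with earlier results of these data known, and Lamc3, another laminin chain gene, is not counted among them. Their probe sets were taken by symbol, as every probe set that the array's annotation lists with one of these symbols. This gave 17 of the 34945 probe sets that carry a single gene symbol, for 9 of 18193 genes. A probe set was tested if its signal lay at or above the median of its own array on at least 3 of the 15 epididymis arrays. Of the 17 probe sets 14 passed, so that 8 of the 9 genes were among the 12239 genes tested, each through its brightest passing probe set, by the mean log2(signal + 16) over the 15 arrays. Lamb3 did not pass, and Lama3 passed on exactly 3 arrays.

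A laminin is a trimer of an alpha, a beta and a gamma chain, coiled together in the endoplasmic reticulum before secretion and then joined with other trimers into the sheet that founds every basement membrane. The alpha chain carries most of the sites that integrins and dystroglycan bind, so the alpha chain made by a cell largely sets what its basement membrane can bind. In a duct such as the epididymis, one basement membrane lies under the epithelium and others wrap each smooth muscle cell and each vessel.

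The study followed the epididymis, the coiled tube that carries sperm away from the testis, from before its coiling to just after birth, and its design compares each stage with the next. All epididymis samples were whole organs of wild-type CD-1 males, an outbred mouse stock, with 3 arrays at each of 5 stages: gestational days 12 (gd12, Theiler stage 20), 14 (gd14, stage 22), 16 (gd16, stage 24) and 18 (gd18, stage 26), and postnatal day 2 (pnd2, stage 27). No treatment was given, and RNA went through 2 rounds of amplification before labelling with biotin. The series text describes each sample as the pair of organs of 1 animal, each animal from its own dam. The labels of the gd12 and gd14 samples, however, give a pool size of 3, whereas those of gd16, gd18 and pnd2 state no pooling, so the spread at the 2 earliest stages may be that of pools. A 16th array held RNA of 8 whole newborns (4 male and 4 female, postnatal day 0.5, no strain label) and entered no comparison. In whole organs, fewer cells of a type and less RNA per cell cannot be told apart.

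Signal is a linear intensity, and the 15 epididymis arrays had median signals of 110.3 to 133 except pnd2 replicate 3, at 81.24. On that array the 3' end of Gapdh gave 63.16 times the signal of the 5' end, whereas the other 14 arrays gave 4.333 to 7.18, and for Actb the ratio was 80.73 against 2.404 to 4.141. It also split probe sets of a single laminin gene. For Lamc1, one probe set read 474 on it beside 412 and 490.4 on its stage mates, whereas the other read 9.12 beside 630 and 816. All stages share 1 estimate of the spread in the fit, so counts of called genes are also given with this array left out. The fit without it keeps the filter and the choice of probe sets made with all 15 arrays. Of the tissue markers, all 11 epithelial genes with a probe set passed the filter, among them those of keratins and E-cadherin. The summed signal of the germ cell markers ran from 15380 to 22760 at gd12 and from 279 to 358 at gd18, and that of testis supporting and interstitial cells from 5324 to 9296 and from 948 to 1881. Every comparison with gd12 therefore includes this difference in gonad markers, and its part in the laminin results was not tested. Single arrays of later stages also stood apart. The testis supporting and interstitial cell markers summed to 5505 on gd16 replicate 9, beside 1126 and 1079 on its stage mates. On gd14 replicate 10 they summed to 3538, beside 1922 and 1912. Skeletal muscle markers summed to 4178 on pnd2 replicate 2, beside 193.9 and 181.8. These arrays stay in the main fit.

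Promoter sequence was held by RefSeq's table (build GRCm38.p6) for 5 of the 9 members, and 4 are described here because they include the alpha and beta chains that rose (Lama2 and Lamb2) and a chain of each class that was not called. Each window searched held 250 bases. Of these, 1 (Lama2), 235 (Lamb2), 205 (Lama5) and 103 (Lamb1) lie before the gene's outermost annotated start, and the rest within the gene's annotated bounds. In each window 5 motifs were searched on both strands. They were the TATA box core (TATAAA), the NF-Y box (CCAAT), the Sp1 box (GGGCGG), an androgen receptor half-site (AGAACA) and the CArG box, which serum response factor binds in smooth muscle genes. The window of Lama2 (chr10:27616943-27617192, minus strand) held 1 CArG box and 1 AGAACA. A CArG box was found in 1.47% of all 32817 windows of that length and AGAACA in 16.1%. That of Lamb2 (chr9:108479612-108479861, plus strand) held none of the 5 motifs. The Lama5 window (chr2:180225860-180226109, minus strand) held 4 copies of GGGCGG, a motif present in 32.7% of windows, and the Lamb1 window (chr12:31265043-31265292, plus strand) held 2 copies of it and 1 CCAAT, present in 33.8%. None held TATAAA, which 12.4% of windows contain. A match is a description of the letters and not a binding site. Printed below 5' to 3', motif matches in capitals, are the bases of each window that precede the gene's outermost annotated start, and for Lama2, whose window lies inside those bounds apart from 1 base, the 30 bases around its CArG box (chr10:27616962-27616991).
Lama2: aaccaaggacCCTTTAAAGGcccaggcctg
Lamb2: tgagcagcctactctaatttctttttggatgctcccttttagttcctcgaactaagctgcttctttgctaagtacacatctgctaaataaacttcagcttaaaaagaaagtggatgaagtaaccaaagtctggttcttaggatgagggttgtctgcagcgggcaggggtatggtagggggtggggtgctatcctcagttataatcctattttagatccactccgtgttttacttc
Lama5: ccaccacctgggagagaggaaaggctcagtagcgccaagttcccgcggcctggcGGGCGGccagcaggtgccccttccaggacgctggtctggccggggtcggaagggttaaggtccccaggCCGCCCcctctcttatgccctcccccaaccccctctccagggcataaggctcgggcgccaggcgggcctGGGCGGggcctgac
Lamb1: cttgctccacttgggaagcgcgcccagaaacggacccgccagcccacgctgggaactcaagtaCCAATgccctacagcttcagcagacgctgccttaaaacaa
The stretches of Lamb2, Lama5 and Lamb1 are chr9:108479612-108479846, chr2:180225905-180226109 and chr12:31265043-31265145. No window was held for Lama1, Lama3, Lama4 and Lamc1, and that of Lamb3 was not used here.

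**Figure D1:**
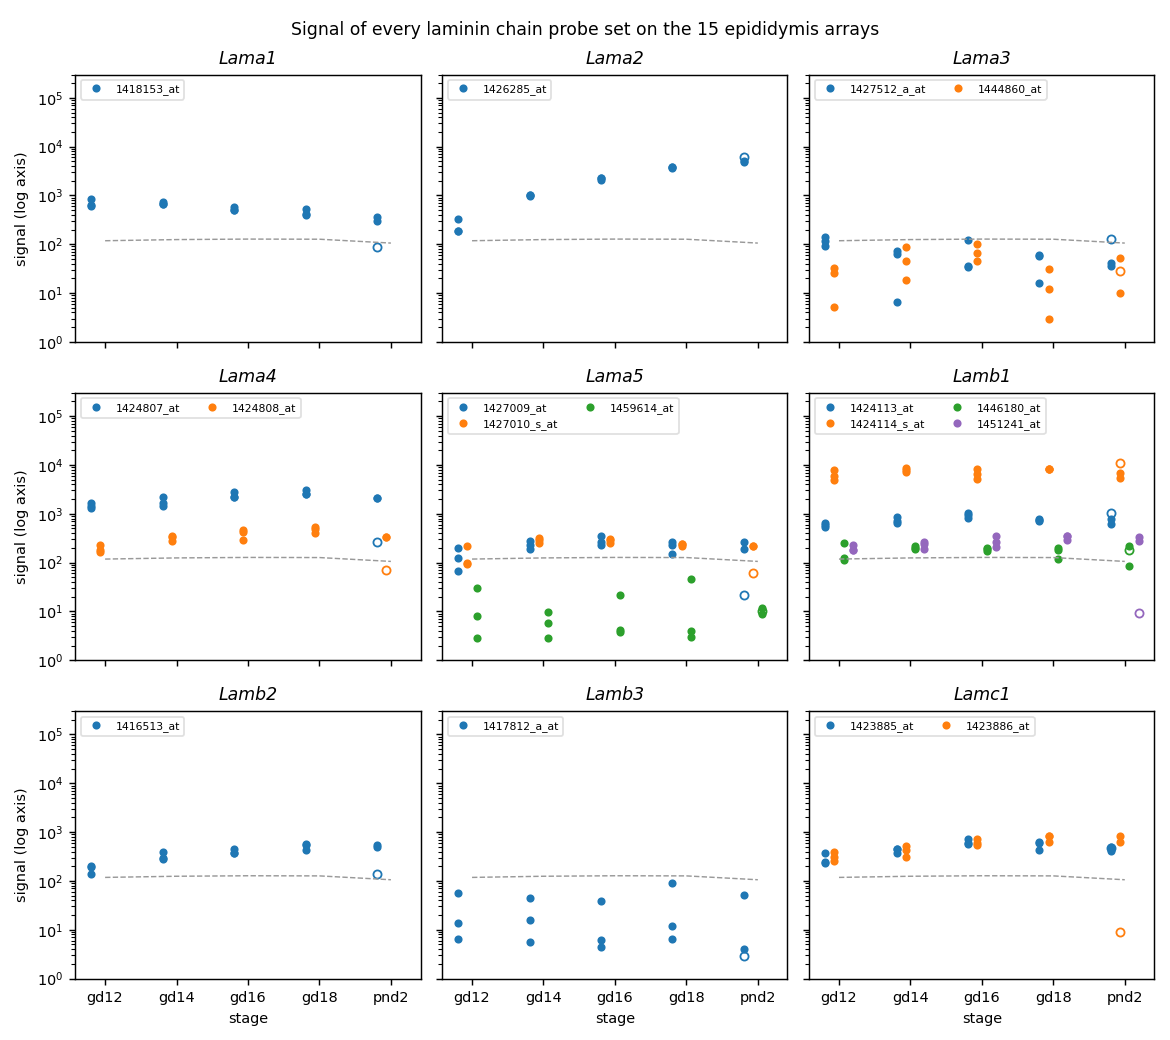
Signal (log axis) of each of the 17 laminin chain probe sets by stage, 1 panel per gene, 1 point per array, 1 colour per probe set; open circles are pnd2 replicate 3 and the dashed line is the mean of the array medians of a stage. Lama2 climbs from 184 at its lowest gd12 array to 6146 at pnd2, whereas Lamb3, the dimmer probe set of Lama3 and the dimmest of Lama5 stay under the dashed line.

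Between gd12 and gd18 the RNA of 3 chains rose, Lama2 by 15.7-fold, Lamb2 by 2.79-fold and Lamc1 by 1.89-fold, and no other tested chain passed the test in the fit to 15 arrays. The 3 are an alpha, a beta and a gamma chain. In that fit the Lamc1 rise was called on 1 of its 2 probe sets. These were 3 of 8 tested chains, where 22.9% of all tested genes were called. In the fit that leaves out pnd2 replicate 3, 7 of the 8 were called, 6 higher and Lama1 lower, where 40.8% of all genes were called. The median log2 change of the 8 chains was 0.84, against 0.01 over all tested genes. Fold changes here and below are on the scale of log2(signal + 16), and adjusted p-values are from limma with the Benjamini-Hochberg method over the 12239 genes.

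Lama2 (chr10:26981285-27617191) encodes the alpha chain of the laminin around skeletal and smooth muscle cells, whose loss causes a congenital muscular dystrophy. Its single probe set read 323, 184 and 187 at gd12, 1019, 1023 and 977 at gd14, and 2238, 2112 and 2293 at gd16. At gd18 it read 3758, 3642 and 3858, and at pnd2 5054, 4862 and 6146. No 2 stages overlapped, and each stage lay above the one before it. From gd12 to gd14 it rose by 4.26-fold (2.09 ± 0.19 on the log2 scale, where ± gives the SE of the fit and n is 3 arrays per stage, adjusted p = 1.01e-05). It was the one chain of 8 called there, where 12.5% of all genes were called. From gd14 to gd16 it was 2.18-fold higher (1.13 ± 0.19, adjusted p = 0.0416), again the sole chain called, where 0.106% of all genes were. That call was lost without any one of the gd14, gd16 and gd18 arrays, or without pnd2 replicate 1 or 2 (adjusted p = 0.0539 to 0.185), and stood at 0.00295 without pnd2 replicate 3. The later steps were smaller, 1.69-fold to gd18 (adjusted p = 0.152, but 0.0264 without pnd2 replicate 3 and 0.0332 without gd12 replicate 13) and 1.42-fold to pnd2 (adjusted p = 0.202). Over the fetal series the log2 change was 3.97 ± 0.19 (adjusted p = 1.26e-08), and from gd12 to pnd2 it was 4.48 ± 0.19, or 22.3-fold.

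Lama1 (chr17:67697127-67822645), the alpha chain of the first basement membranes of the embryo and later of a few epithelia, moved the other way. Its probe set read 600.1, 646 and 863 at gd12, 658, 751 and 678 at gd14, and 508, 571 and 496 at gd16. It then read 529, 400.3 and 421 at gd18 and 299.5, 358 and 89.74 at pnd2. The gd12 and gd14 arrays overlapped, every gd18 array lay below every gd12 array, and every pnd2 array lay below every gd18 array. From gd12 to pnd2 it fell by 1.61 on the log2 scale (SE 0.35, a 3.06-fold difference, adjusted p = 0.00364). Without pnd2 replicate 3, the lowest array, the fall was 1.05 ± 0.18 (2.07-fold, adjusted p = 0.000363). To gd18 the log2 change was -0.62 ± 0.35 (adjusted p = 0.241), and without that pnd2 array, which narrows the shared spread, -0.62 ± 0.16 (adjusted p = 0.00669). For pnd2 against gd12, 3 of the 8 chains were called (Lama1 lower, Lama2 and Lamc1 higher), where 27.5% of all genes were; without pnd2 replicate 3 the count was 5, with Lama4 and Lamb2 added as higher, where 35.7% of all genes were called.

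Lama4 (chr10:38965515-39110188) encodes the short alpha chain of vessel walls, fat and mesenchyme. Its brighter probe set read 1427, 1309 and 1667 at gd12, 2180, 1628 and 1449 at gd14, and 2829, 2160 and 2179 at gd16. It read 2553, 2538 and 3140 at gd18, then 2128, 2146 and 258 at pnd2. The gd18 arrays all lay above the gd12 arrays, and the mean of the other pnd2 arrays was 8.29 times the signal of pnd2 replicate 3. The log2 change to gd18 was 0.90 ± 0.56 (1.86-fold, adjusted p = 0.284), and 0.90 ± 0.16 without that array (adjusted p = 0.000319). From gd12 to pnd2 the sign depended on it, at -0.45 ± 0.56 (adjusted p = 0.573) with it and 0.55 ± 0.18 (adjusted p = 0.0246) without it. The second probe set ran from 165 to 231 at gd12 and from 397 to 545 at gd18, a 2.36-fold difference (adjusted p = 0.0532 over all probe sets, 0.000178 without pnd2 replicate 3). The endothelial markers, a cell type that makes this chain, had summed signals of 5526 to 6726 at gd12 and 6226 to 7304 at gd18. The fibroblast and mesenchyme markers had 46730 to 60520 at gd12 and 164800 to 179600 at gd18. Of the endothelial markers 1 of 8 tested was called higher and of the others 8 of 9, where 22.9% of all genes were called. The part of these cell types in the Lama4 values was not tested.

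Lama5 (chr2:180176373-180225904), the alpha chain of most mature epithelial basement membranes, had 2 probe sets above the filter. The one used for the gene read 221, 100.2 and 92.94 at gd12, 319.7, 295 and 249 at gd14, and 307, 293 and 248 at gd16. It read 237, 221 and 237 at gd18 and 222, 222 and 61.1 at pnd2. The gd14 arrays lay above all gd12 arrays, of which replicate 13 read clearly above its mates, and the highest values were at gd14 and gd16. The log2 change to gd14 was 1.07 ± 0.39 (2.10-fold, adjusted p = 0.0933), and it was called without pnd2 replicate 3 (adjusted p = 0.00523) and without gd12 replicate 13 (adjusted p = 0.0345). To gd18 it was 0.78 ± 0.39 (adjusted p = 0.177, 0.0226 without pnd2 replicate 3). The second probe set changed by 0.71 ± 0.57 to gd18 (adjusted p = 0.457), with overlapping arrays, and the third never reached the median of an array (highest signal 46.65).

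Lama3, the alpha chain of the laminin that anchors stratified epithelia, stayed near or under the array medians. Its brighter probe set read 91.72, 117 and 138 at gd12 and 59.5, 57.04 and 15.83 at gd18. It reached the median on gd12 replicates 14 and 15 (1.06 and 1.13 times the median) and on pnd2 replicate 3 (1.57 times), and at gd18 it lay at 0.126 to 0.458 of the median. It was called in none of the comparisons of stages, and at these signals its changes depend on the constant of 16. Its second probe set reached no array median (highest 99.52).

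Among the beta chains Lamb2 rose, and Lamb1 was called in no comparison with 15 arrays. Lamb2 (chr9:108479847-108490530) encodes the beta chain of muscle, nerve endings and the kidney filter, and it read 205, 137 and 190.3 at gd12, 295, 392 and 277 at gd14, and 378, 454 and 365 at gd16. At gd18 it read 582, 550.5 and 429.6, and at pnd2 536, 504 and 139. Arrays of gd14 and of gd18 all lay above those of gd12, while neighbouring stages from gd14 on overlapped. The log2 change from gd12 to gd14 was 0.81 ± 0.38 (1.75-fold, adjusted p = 0.194; 0.00542 without pnd2 replicate 3). From gd12 to gd18 it was 1.48 ± 0.38 (adjusted p = 0.0113), and 1.32 without gd12 replicate 14, the lowest array, where the call was lost (adjusted p = 0.053).

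Lamb1 (chr12:31265146-31329644), the widespread beta chain of embryonic and adult laminins, read 5008, 7714 and 5878 at gd12 on the probe set used, and 8715, 7048 and 7807 at gd14. It read 6683, 8127 and 5160 at gd16, 8095, 8416 and 8361 at gd18, and 5323, 6953 and 10780 at pnd2. The gd18 arrays lay above the gd12 arrays by a log2 change of 0.44 ± 0.24 (1.36-fold, adjusted p = 0.205; 0.0479 without pnd2 replicate 3), and all other stages overlapped gd12. Its 3 other probe sets changed by 0.08 to 0.68 on the log2 scale over the same interval and none was called with all arrays. Without pnd2 replicate 3 and adjusted over all probe sets, the probe set that changed by 0.68 was called (adjusted p = 0.0178). The others were not (0.0994 and 0.877), nor was the probe set used (0.0518). On pnd2 replicate 3 the probe sets disagreed, one at 9.36 beside 283 and 333, a 32.9-fold gap, and another at 1057 beside 768 and 611.

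Lamb3 (chr1:193294353-193343878), the beta partner of Lama3 in the laminin of stratified epithelia, was between 2.89 and 89.41 on all 15 arrays and under every array's median. No change can be given at these signals.

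Lamc1 (chr1:153218922-153332786), the gamma chain that most laminins share, had its highest mean at gd16 on the probe set used. It read 241, 233 and 382 at gd12, 459.9, 444 and 366 at gd14, and 718.5, 564 and 593 at gd16. It read 432, 586 and 623 at gd18 and 412, 490.4 and 474 at pnd2. All gd16 arrays lay above all gd14 arrays, the gd14 arrays overlapped gd12 through gd12 replicate 15, and the steps from gd16 to gd18 and from gd18 to pnd2 were not called. On this probe set every gd16 array also lay above every pnd2 array, a comparison that was not tested. The log2 change from gd12 to gd14 was 0.57 ± 0.22 (adjusted p = 0.111), which was called without gd12 replicate 15 (0.79, adjusted p = 0.034) and without pnd2 replicate 3 (adjusted p = 0.0435). The log2 change from gd12 to gd18 was 0.92 ± 0.22 (adjusted p = 0.00759), and to pnd2 it was 0.69 ± 0.22 (1.61-fold, adjusted p = 0.0315). The pnd2 call was lost without gd12 replicate 13 (adjusted p = 0.102), gd12 replicate 14 (0.118) or pnd2 replicate 2 (0.0665). The other probe set read 302, 250.3 and 392 at gd12 and 846, 623 and 850.3 at gd18, a 2.40-fold difference (adjusted p = 0.383, 0.00026 without pnd2 replicate 3). Its highest mean was at gd18 and not at gd16, where it read 719, 600.1 and 531.9. On pnd2 replicates 1 and 2 it read 630 and 816, so the lower pnd2 values were not seen on these 2 arrays. Over the 15 arrays the probe set used had the higher mean log2 signal (8.86 against 8.78) but the lower median signal (459.9 against 531.9), and without pnd2 replicate 3, where the other read 9.12, the means were 8.85 and 9.08. That array therefore decided which probe set stands for Lamc1, and with 15 arrays the other was called in no comparison. With the mean of both probe sets, the gd18 call was lost (adjusted p = 0.116), as was the pnd2 call (0.879). Lamc3, another gamma chain, was between 18.14 and 202.9 with a log2 change of 0.01 ± 0.62 to gd18 (adjusted p = 0.993).

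**Figure D2:**
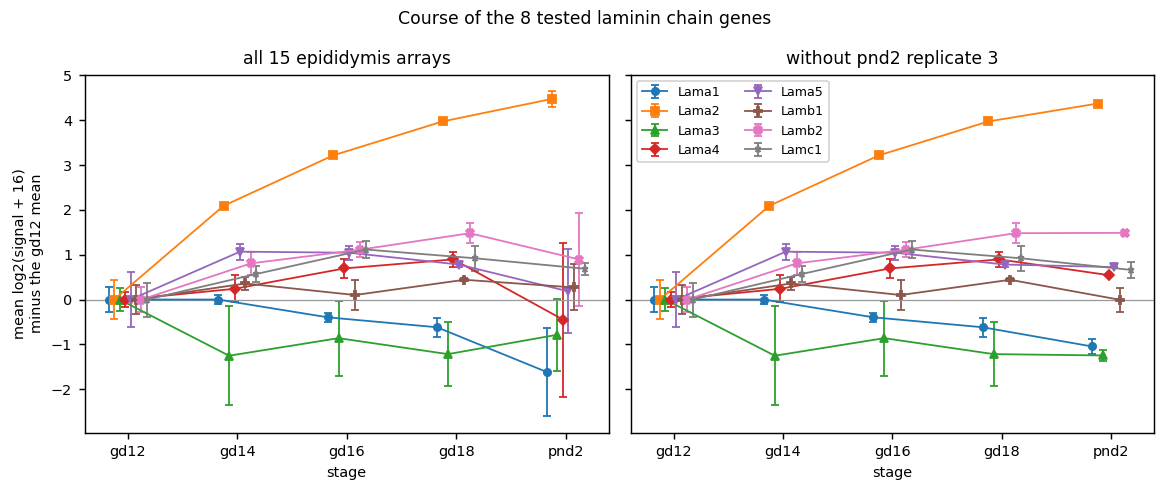
Mean log2(signal + 16) of the 8 tested laminin chain genes at each stage minus the gd12 mean of the same gene, error bars ± 1 SD over the arrays of a stage, with 15 arrays (left) and without pnd2 replicate 3 (right). Lama2 ends 4.48 above its gd12 mean with all arrays and 4.37 without that array, Lama1 ends 1.61 and 1.05 below it, and Lama4 changes sign at pnd2 between the panels.

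From gd12 to gd14 the median log2 change of the 8 chains was 0.47, against 0.03 over all genes, and from gd14 to gd16 it was 0.35, against -0.03. From gd16 to gd18 it was 0.003, against 0.014, and from gd18 to pnd2 -0.41, against -0.05, or -0.16 without pnd2 replicate 3. Without pnd2 replicate 3 the first step had 4 chains called higher, Lama2, Lama5, Lamb2 and Lamc1, where 29.8% of all genes were called. The step to gd16 had Lama2 alone, where 1.16% were. From gd16 to gd18 none of the 8 chains was called by limma with 15 arrays, where 0.327% of all genes were, and 1 had an unadjusted p under 0.05 (Lama2, 0.00131). Lama2 was called there without pnd2 replicate 3, where 1.75% of all genes were. From gd18 to pnd2 no chain was called by limma with 15 arrays or with 14, where 0.596% and 1.96% of all genes were. Unadjusted p-values under 0.05 were those of Lama1 (0.0133), Lama2 (0.0188) and Lama4 (0.0296) with 15 arrays, and of Lama1 (0.0325), Lama2 (0.0396) and Lamb1 (0.032) with 14, where Lama4 had 0.0643. Across all 5 stages, limma's moderated F test called Lama1 (adjusted p = 0.0142), Lama2 (1.17e-08) and Lamc1 (0.012), 3 of 8 chains, where 26.5% of all genes were called. Lamc1 was not called there without gd12 replicate 13 (adjusted p = 0.0524) or 14 (0.06), and Lamb2 (0.0656) was called without pnd2 replicate 1 (0.0386) or 2 (0.0458). With that pnd2 array left out it called 6 of the 8, all but Lama3 and Lamb1, where 45.7% were.

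**Figure D3:**
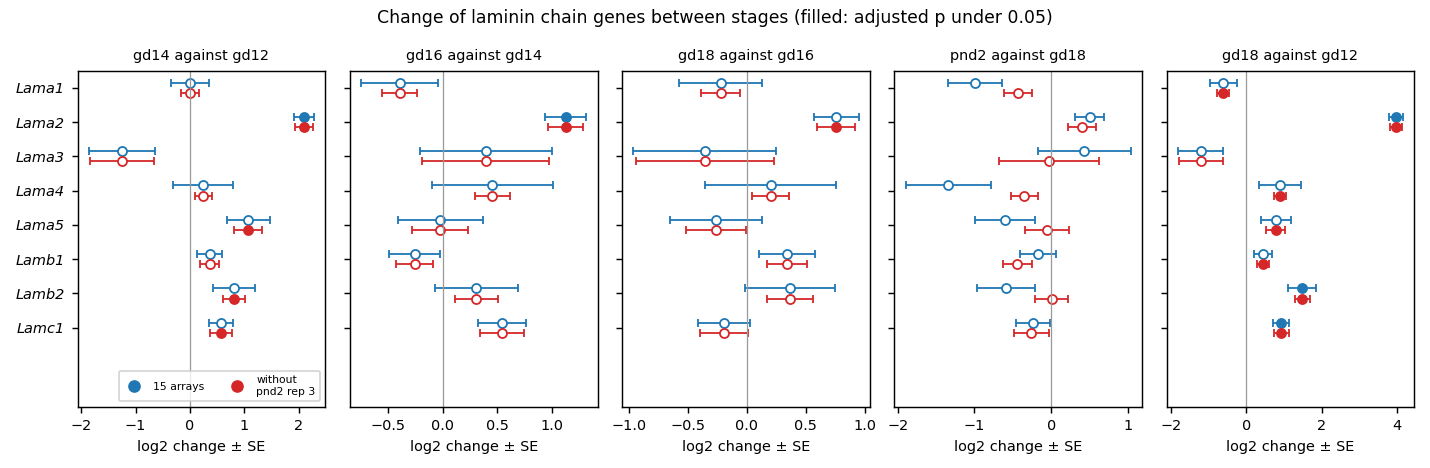
Log2 change ± SE of each tested laminin chain gene in 4 consecutive steps and from gd12 to gd18, with 15 arrays (blue, upper of each pair) and without pnd2 replicate 3 (red, lower); filled points have an adjusted p under 0.05. With 15 arrays the filled points are Lama2 in the first 2 steps and Lama2, Lamb2 and Lamc1 from gd12 to gd18.

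To ask which chains rose together, the change of each chain was tested relative to another on the same array, in fits that express all 12238 other genes relative to that chain. There were 18 pairs, all chains against Lamc1, through the probe set used above, and the pairs within the alpha and beta classes. Pairs with Lama3 are not described, since its signals at gd14 and gd18 lay under the array medians. Relative to Lamc1, Lama2 rose by 3.05 ± 0.32 on the log2 scale from gd12 to gd18 (8.30-fold, adjusted p = 3.66e-06), and Lama1 fell by 1.54 (SE 0.40, adjusted p = 0.00502). Lamb2 was not told apart from Lamc1, with a difference of 0.56 (95% interval -0.34 to 1.46). Nor were Lamb1 (-0.48, interval -1.17 to 0.21), Lama4 (-0.03, interval -1.19 to 1.14) and Lama5 (-0.14, interval -1.07 to 0.80), intervals wide enough to hold a 2-fold difference. In that reference 57.1% of all genes were called, and 18.7% from gd12 to gd14, where Lama2 was called (1.52 ± 0.32, adjusted p = 0.00473). With the mean of probe sets that call was lost (1.60, adjusted p = 0.242), whereas at gd18 Lama2 (adjusted p = 0.00412) and Lama1 (0.00536) stayed called relative to Lamc1.

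Within the alpha class 3 chains rose relative to Lama1. Relative to Lama1, Lama2 rose from gd12 to gd18 by 4.59 ± 0.47 on the log2 scale (24.1-fold, adjusted p = 1.1e-05), Lama4 by 1.51 ± 0.36 (2.86-fold, adjusted p = 0.00881) and Lama5 by 1.40 ± 0.36 (2.64-fold, adjusted p = 0.0119), where 21% of all genes were called. The Lama5 call was lost without gd12 replicate 14 or 15 or gd18 replicate 5 or 6 (adjusted p = 0.0524, 0.071, 0.0509 and 0.0524). From gd12 to gd14, with 15 arrays, Lama2 was called relative to Lama1 (2.09 ± 0.47, adjusted p = 0.0204, lost without gd12 replicate 14 or 15 or any gd14 array, at 0.0728 to 0.108), where 3.3% of all genes were. Lama5 relative to Lama1 was called there without gd12 replicate 13 (1.53, adjusted p = 0.0149) or pnd2 replicate 3 (1.07, adjusted p = 0.0305). Relative to Lama2, Lama4 fell by 3.08 (SE 0.63) and Lama5 by 3.19 (SE 0.39) to gd18, where 99.2% of all genes were called and 94.9% to gd14, so that nearly any gene was. Lama5 relative to Lama4 differed by -0.12 (interval -1.14 to 0.91) to gd18, and its change to gd14 was called without pnd2 replicate 3 (0.83, adjusted p = 0.0491). Relative to Lama4, 0.425% of all genes were called to gd14 and 4.09% to gd18, and relative to Lama5, 37.2% and 18.5%.

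Within the beta class, Lamb2 relative to Lamb1 changed by 1.04 ± 0.55 from gd12 to gd18 (2.06-fold, interval -0.14 to 2.22, adjusted p = 0.209), and every gd18 array lay above every gd12 array. The same change was called without pnd2 replicate 3 (adjusted p = 0.0149) and with the mean of probe sets (0.0218). With Lamb1 as the reference 6.33% of all genes were called to gd14 and 17% to gd18.

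**Figure D4:**
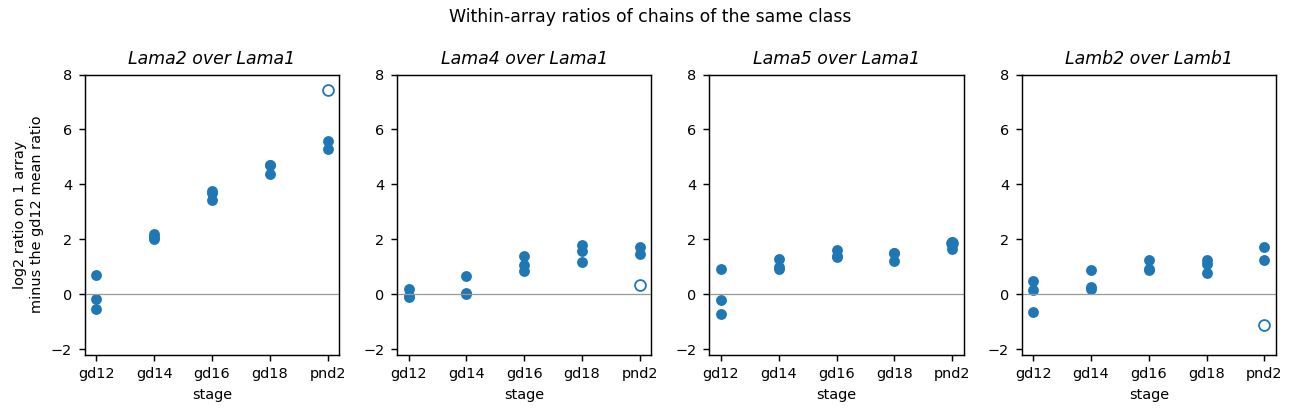
Log2 ratio of 2 chains of the same class on each array minus the mean ratio of the gd12 arrays, by stage; 1 point per array, open circles pnd2 replicate 3. The ratio of Lama2 to Lama1 climbs at each stage, those of Lama4 and Lama5 to Lama1 are higher at gd18 than at gd12, and that of Lamb2 to Lamb1 is higher at gd18 but not called with 15 arrays.

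Over the 14 arrays without pnd2 replicate 3, which share stage and organ, the log2 signals of Lama2 and Lamb2 had a Pearson correlation of 0.95, those of Lama4 and Lamc1 of 0.86, and those of Lama1 and Lama2 of -0.81. With all 15 arrays the same pairs gave 0.64, 0.34 and -0.69, so the first pair and the second rest on leaving that array out. The genes most like Lama2 over the 15 arrays, among 3236 other genes with a change over the stages, were Acta2 (smooth muscle actin, Pearson r = 0.99), Aspn (asporin, a matrix proteoglycan, 0.99) and Col5a2 (a fibrillar collagen chain, 0.99). For Lamb2 they were Zfp651, Clstn1 and Esyt1 (0.95 to 0.96), for Lamc1 Hook3, Dnajc6 and Neil3 (0.90 to 0.92), and for Lama5 Bmp5, Sdc2 and Ecm1 (0.92 to 0.93). Lama1 was most like Fam222b, Septin9 and Tmem88 (0.95 to 0.97), which gave 0.82 to 0.88 without pnd2 replicate 3. The highest values for Lama4 were 0.89 to 0.90 (Rian, Dtx1 and 9530068E07Rik), and were 0.67 to 0.77 without that array. Lama3 (Dnmt3b, Mfsd13a, Ell2) and Lamb1 (Fjx1, Cyb561a3, Ifi27) had no gene above 0.76.

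The summed signals of smooth muscle markers and of fibroblast markers both rose over the stages, as Lama2 did. Arrays of neighbouring stages did not overlap for smooth muscle markers, and for fibroblast markers they overlapped only between gd14 and gd16. Of 8 tested smooth muscle markers 7 were higher at gd18 than at gd12, where 22.9% of all genes were called. Their summed signal ran from 4886 to 6521 at gd12, 13180 to 17870 at gd14 and 28110 to 33410 at gd16. It ran from 48750 to 50320 at gd18 and from 56260 to 65470 at pnd2. Without pnd2 replicate 3, 7 of 8 smooth muscle, 9 of 9 fibroblast and 9 of 11 epithelial markers were higher at gd18. There 40.8% of all genes were called. The fibroblast markers, 8 of 9 higher at gd18, summed to between 46730 and 60520 at gd12 and between 128600 and 141100 at gd14. They summed to 136300 to 164700 at gd16, 164800 to 179600 at gd18 and 181100 to 206300 at pnd2. From gd14 to gd16 none of the 9 was called, and none of the 8 smooth muscle markers, where 0.106% of all genes were. Without pnd2 replicate 3, 1 of the 8 smooth muscle and none of the 9 fibroblast markers was called there, where 1.16% of all genes were. The epithelial markers, 6 of 11 higher at gd18, summed to 6156 to 8340 at gd12 and 17710 to 18220 at gd18. Lmod1 was the one smooth muscle marker under the filter. The part of these cell types in the laminin results was not tested.

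The proteins that join laminin to the rest of the basement membrane were measured by 17 tested genes. From gd12 to gd18, 6 were higher and 1 lower, where 22.9% of all genes were called, with a median log2 change of 0.72, against 0.01 over all genes. Nid1 (nidogen, which bridges laminin gamma chains to collagen IV) rose by 3.04-fold (log2 change 1.60 ± 0.18, adjusted p = 1.59e-05), and Smoc2, a calcium-binding matrix protein, by 6.22-fold (2.64 ± 0.18, adjusted p = 1.51e-07). Frem2, of the complex under epithelia, rose by 2.80-fold (adjusted p = 0.00176), and Col18a1, the collagen that yields endostatin, fell by 1.37 on the log2 scale (SE 0.18, adjusted p = 8.04e-05). Without pnd2 replicate 3 the counts were 9 higher and 1 lower, where 40.8% of all genes were called. From gd12 to gd14, with 15 arrays, they were 5 and 1, where 12.5% were.

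Of the 6 collagen IV chains, the other network of the basement membrane, 4 rose to gd18 and none fell, beside the 22.9% of all genes called. They were Col4a6 at 6.25-fold (2.64 ± 0.28, adjusted p = 1.08e-05), Col4a4 at 3.65-fold, Col4a5 at 3.51-fold and Col4a1, of the widespread network, at 1.81-fold (adjusted p = 0.00323). Without pnd2 replicate 3 all 6 were called higher, beside 40.8% of all genes.

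Of 12 tested laminin receptors 2 were higher at gd18 and 3 lower, where 22.9% of all genes were called (1556 higher and 1246 lower). Without pnd2 replicate 3 the counts were 3 and 3, where 40.8% were, and the median log2 change of the receptors was -0.20. Itga1, the alpha subunit of a collagen and laminin integrin, rose by 2.57-fold (1.36 ± 0.28, adjusted p = 0.00311), and Sdc2, a syndecan, by 1.75-fold. Itga6, the alpha subunit of the main epithelial laminin integrins, fell by 1.15 (SE 0.36, adjusted p = 0.0329), Dag1, dystroglycan, by 0.55 (SE 0.12, adjusted p = 0.00373), and Cd151, the tetraspanin of laminin integrins, by 0.40 (SE 0.12, adjusted p = 0.0316).

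Of 15 cytoplasmic linkers 4 were higher and 1 lower at gd18 (6 and 2 without pnd2 replicate 3), where 22.9% and 40.8% of all genes were called. Parva, an adaptor of the integrin-linked kinase complex, rose by 2.86-fold (adjusted p = 7.43e-05), the sarcoglycans Sgce and Sgcb by 2.08-fold and 1.61-fold, and Fermt2, a kindlin, by 1.48-fold. Utrn, utrophin, was the one lower (a fall by 0.55 on the log2 scale, SE 0.16, adjusted p = 0.0214). Of 9 genes of basement membrane turnover 4 were higher and 1 lower beside the same 22.9% of all genes (6 and 1 without that array, beside 40.8%). The matrix protease Adamts1 rose by 3.02-fold and the protease inhibitors Timp3 and Timp2 by 3.00-fold and 2.94-fold, while Timp1 fell by 1.18 (SE 0.22, adjusted p = 0.00141). Among 3 tested netrins, relatives of the laminin short arms, 1 was called, where 22.9% of all genes were. This was Ntn1, which rose by 4.90-fold (2.29 ± 0.50, adjusted p = 0.00422).

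**Figure D5:**
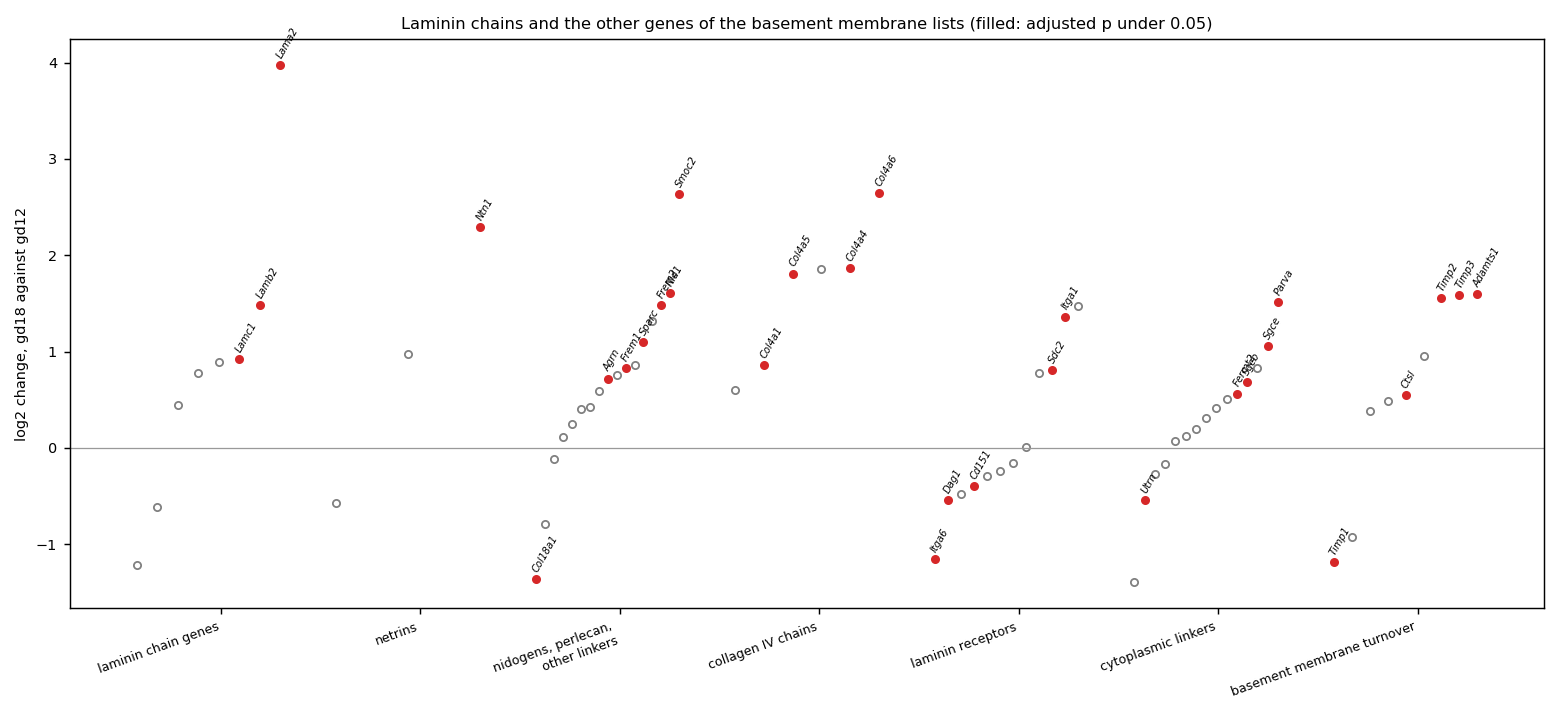
Log2 change from gd12 to gd18 of the laminin chain genes and of the other genes of 6 basement membrane lists, 1 point per tested gene, sorted within each list; filled points have an adjusted p under 0.05 and are named. Lama2, at 3.97, is the highest point of the plot, and Col4a6 and Smoc2, both at 2.64, lead the other lists.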

How the data were processed

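The deposited values are linear signal intensities, 1 for each probe set on each array. Per the submitters' processing notes the authors made them with GCOS, Affymetrix's own software. Its version and its method of summarising probes, not given in the sources used here, remain unknown. The trimmed mean of every array, without the lowest and highest 2% of probe sets, was 500, as scaling by a single factor leaves it, and arrays were not normalized further. A single factor keeps ratios within an array but not its RNA quality. Of 45101 probe sets, 64 are controls, 34945 carry 1 gene symbol in the platform annotation, 932 several and 9160 none listed; all 9 members matched the RefSeq gene table by gene identifier.

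Signals were taken as log2(signal + 16), filtered as the report states (21613 probe sets kept) and reduced to the kept probe set with the highest mean log2 signal per gene, except where all probe sets were fitted. The comparisons of stages used limma 3.58.1 (R 4.3.3), with 1 mean per stage over the 15 epididymis arrays and variances moderated with an intensity trend, and Benjamini-Hochberg adjustment within each comparison. Calls are at an adjusted p under 0.05, and the fit was tested on simulated data. Those data had independent noise with the same spread on every array, estimated without pnd2 replicate 3. They held no array like that one, so they do not show how the fit behaves with it. Pair fits subtracted the reference chain's log2 signal on the same array and used no trend. Signals were not compared between probe sets, since brightness depends on the probes.

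The members, pathway lists and marker lists were chosen with earlier results of these data known. Named genes are all members, at most 4 per pathway list with the largest change among those called at gd14 or gd18 against gd12, and the 3 genes most like each member by Pearson correlation among those with an F test adjusted p under 0.05. Dag1 and Utrn fall outside that rule and were named after their values were seen. Replicates are the samples of a stage as labelled, so p-values measure the spread between animals, or between pools where the labels give them. Their number, 3 per stage, limits the precision. The replicate numbers run through the series and pair no samples. No batch is given.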

Additional observations from a re-analysis of the deposited data

Results flagged for a closer look

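On the array of pooled whole newborns, which entered no comparison, Lamb3 read 548.3 and the brighter probe set of Lama3 259.6, above the array's median of 134. On the 15 epididymis arrays their highest signals were 89.41 and 138.2. They drew attention as signals in a sample that no comparison uses. Both genes encode chains of the laminin of stratified epithelia. The pool is 1 array without a replicate, so the difference from the epididymis was not tested.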

How the results depend on the processing

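Over 29 alternatives, 2643 values of single chains and of chain pairs were recomputed, and 2460 kept their direction and their side of the threshold, 73 newly passed it, 64 no longer did, 44 uncalled values changed sign, and 2 reversed. The calls of Lama2 for gd14 against gd12, gd18 against gd12 and pnd2 against gd12 held in all 29. The 2 reversals were Lama4 for pnd2 against gd12, at 0.55 without pnd2 replicate 3 and also without that array, gd14 replicate 10 and gd16 replicate 9 together. Leaving out 1 array at a time gave -0.95 to 0.55 for it.

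Counts of called chains that moved by more than 1.5 times, and others of the same settings, were as follows. For gd16 against gd14 the count of 1 became 0 with median centring, a constant of 1, every probe set tested, without the 3 arrays just named, and at a threshold of 0.01. With array quality weights 3 chains were called for gd14 against gd12, 1 for gd18 against gd16, 6 for gd18 against gd12 and 6 for any change. With only the 6 arrays compared the counts were 3, 1 and 6 for the same comparisons and 1 for pnd2 against gd12. Without the 3 arrays they were 3 for gd14 against gd12, 7 for gd18 against gd12, 5 for pnd2 against gd12 and 6 for any change, and at the threshold of 0.01 any change had 1. Smaller shifts from the counts of 3 were 2 for gd18 against gd12, pnd2 against gd12 and any change with the mean of probe sets, 2 for pnd2 against gd12 with no filter, 4 for pnd2 against gd12 and any change with quantile normalization or median centring, 4 for pnd2 against gd12 with array quality weights, and 2 for gd18 and pnd2 against gd12 at the threshold of 0.01. Leaving out 1 array at a time gave 1 to 4 chains for gd14 against gd12, 0 to 1 for gd16 against gd14 and for gd18 against gd16, 2 to 7 for gd18 against gd12, 2 to 5 for pnd2 against gd12 and 2 to 6 for any change, with 0 throughout for pnd2 against gd18. The 4, 7, 5 and 6 are those without pnd2 replicate 3. The cause of these changes was not tested, apart from the narrower shared spread without pnd2 replicate 3. Median centring moved the median change of all genes for pnd2 against gd18 from -0.05 to 0.13. No paired analysis was possible because no replicate number is shared between stages.

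Limits: Lamb3 lies under the array medians and Lama3 under those of 12 of the 15 arrays, and detection calls were not used here. Lama1, Lama2, Lamb2 and Lamb3 rest on 1 probe set each, and the probe sets used for Lama5 and Lamb1 carry the suffix for probes shared between transcripts.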

Other observations

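On the newborn pool array the probe sets used for the other chains read 43.7 for Lama1, under the 89.74 to 862.5 of the epididymis arrays, and 1274 for Lama2, between its gd14 and gd16 arrays. They read 2371 for Lama4, 223.3 for Lama5, 381.5 for Lamb2 and 490.8 for Lamc1. For Lamb1 the value was 4025, under its lowest epididymis array of 5008. The other Lamb1 probe sets disagreed. The brightest of them read 770.7, within its epididymis range of 535.4 to 1057. Another read 70.45, under its lowest array of 85.43, and the last read 167.7, under all arrays but pnd2 replicate 3 (9.36).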
